A study of Mus musculus with 74 samples.

Results

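Primary mammary tumors (PT) of SEA PyMT-F1 mice were compared with those of BALB PyMT-F1 mice, gene by gene, from the mean expression deposited for each group. The 2 tables of group means were joined by gene identifier, which gave 16633 genes with a mean in both. A gene was described when its deposited PT mean was at least 10 in both strains or at least 50 in one, and 14977 of the 16633 genes met this. The genes nearest the lower limit were Gm20544 on the inside, with 12.1 in SEA and 10.0 in BALB, and Gm11413 on the outside, with 14.3 and 9.997.

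The series holds 74 samples of primary tumors and lung metastases from mice that differ in oncogenic driver or in inbred background. RNA sequencing was the measurement used here, with 6 SEA PT, 6 BALB PT and 6 Lung mets of each strain by the sample titles. Both groups were female F1 offspring of a male FVB mouse carrying MMTV-PyMT and a female of the inbred strain, SEA/GnJ for SEA and BALB/cJ for BALB, so each mouse carried 1 FVB genome and 1 genome of its mother's strain. The transgene expresses the polyoma virus middle T antigen from the mouse mammary tumor virus promoter, which is active mainly in mammary epithelium. Tissue was taken at a humane endpoint rather than at a set age, and all primary tumors of a mouse were combined into 1 sample. SEA/GnJ and BALB/cJ are related, since SEA was derived from a cross of BALB with another strain, P/J, and the study classed SEA as a background of low and BALB as one of high metastatic efficiency.

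The labels of these samples conflict. Only 2 of the 12 PT samples had a genotype label that named the same strain as the title, and the genotype of the BALB cross was written BALB/NJ. Which libraries entered each deposited mean could therefore not be settled from the labels, and the groups below are those named by the 2 tables. Each mean was the authors' value with no error or replicate beside it, so no test was possible and every difference below is a difference between 2 means. The depth of the libraries is unknown from these tables. The strains were normalized in separate tables, and each column was therefore divided by its own median over the 16633 genes and multiplied by the geometric mean of both medians. The result is called the normalized mean count. A log2 ratio was taken as SEA over BALB after adding 1 to both, so positive values are higher in SEA, and 2-fold is a log2 ratio of 1 in either direction.

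Inbred strains of mice differ in inherited alleles, and a change in the F1 background under a fixed oncogene can alter both the tumor cells and the host cells around them. Middle T antigen resembles a constantly active growth factor receptor: it binds Src family kinases, phosphoinositide 3-kinase and Shc at the membrane. Its tumors are luminal and lose hormone receptors as they progress. In bulk tumor RNA, fewer cells of a type and less RNA per cell cannot be told apart.

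Luminal epithelial genes were abundant in both strains. The normalized mean count of Epcam was 4254 in SEA PT and 3964 in BALB PT, and that of Cdh1, which encodes E-cadherin, was 4427 and 4717. Krt8 and Krt18, the luminal keratins, were at 2192 and 2845 in SEA and at 3016 and 3937 in BALB. The 18 luminal genes described had a median log2 ratio of -0.07. Of 10 lung epithelial genes listed, 2 were described, and neither exceeded 20 in PT of either strain.

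Most genes were close in the PT of both strains. The log2 ratio was -0.01 at the median gene and ran from -0.44 at percentile 5 to 0.48 at percentile 95, and 72.9% of the genes were within 1.2-fold. At least 2-fold higher in SEA were 95 genes, or 0.634% of those described, and at least 2-fold higher in BALB were 102 genes, or 0.681%. Of these, 4 were past 4-fold in SEA and 16 in BALB. Such differences were more frequent among low genes: 2.43% of the 3410 genes under a normalized mean count of 50 were past 2-fold, against 0.551% of the 1452 genes at 1000 or more. Between 2 and 2.1-fold lay 30 genes, and 58 lay between 1.9 and 2-fold.

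**Figure D1:**
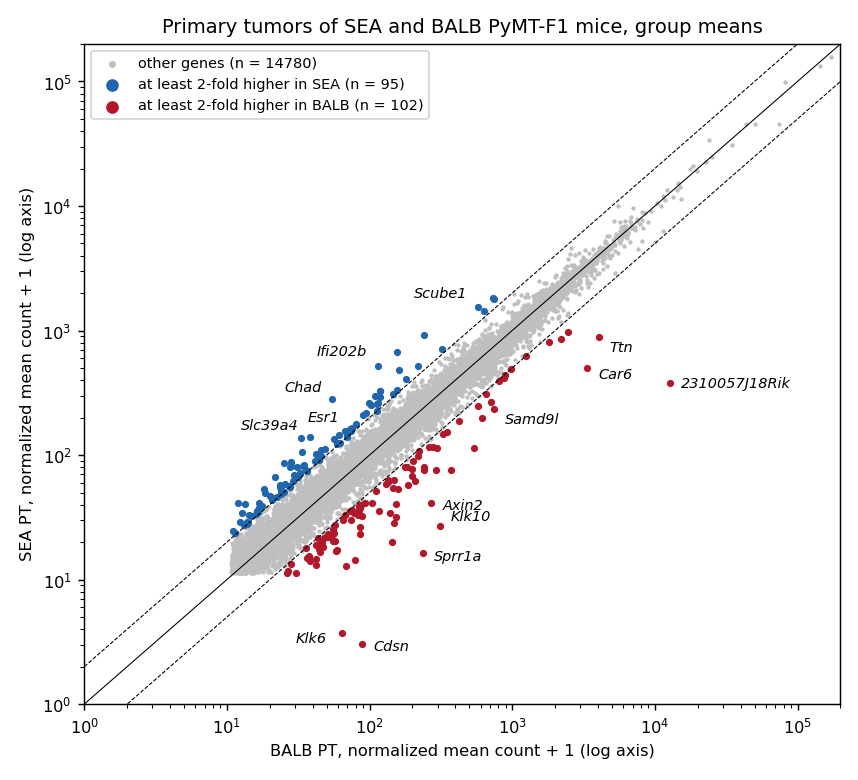
Normalized mean count plus 1 of 14977 genes in BALB PT (horizontal, log axis) and SEA PT (vertical, log axis), 1 point a gene, with dashed lines at 2-fold. The 95 blue and 102 red genes lie outside the dashed lines, and 2310057J18Rik stands farthest to the right of them, at 12764 in BALB and 378 in SEA.

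The Lung mets of the same strains gave a separate pair of means, from other libraries of the same mice by the sample titles. In Lung mets 136 genes (0.908%) were at least 2-fold higher in SEA and 166 (1.11%) at least 2-fold higher in BALB. Of the 197 genes past 2-fold in PT, 142 (72.1%) had the same sign in Lung mets, against 63.3% of all 14977 genes. Past 2-fold in the same direction in both tissues were 20 genes higher in SEA (0.134% of all genes described) and 29 higher in BALB (0.194%). These were 21.1% of the SEA-higher and 28.4% of the BALB-higher PT genes. Across the 14977 genes the PT and Lung met ratios had a Pearson correlation of 0.32 and a Spearman correlation of 0.33, as a description over genes, where both tissues share mice, strain and table.

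**Figure D2:**
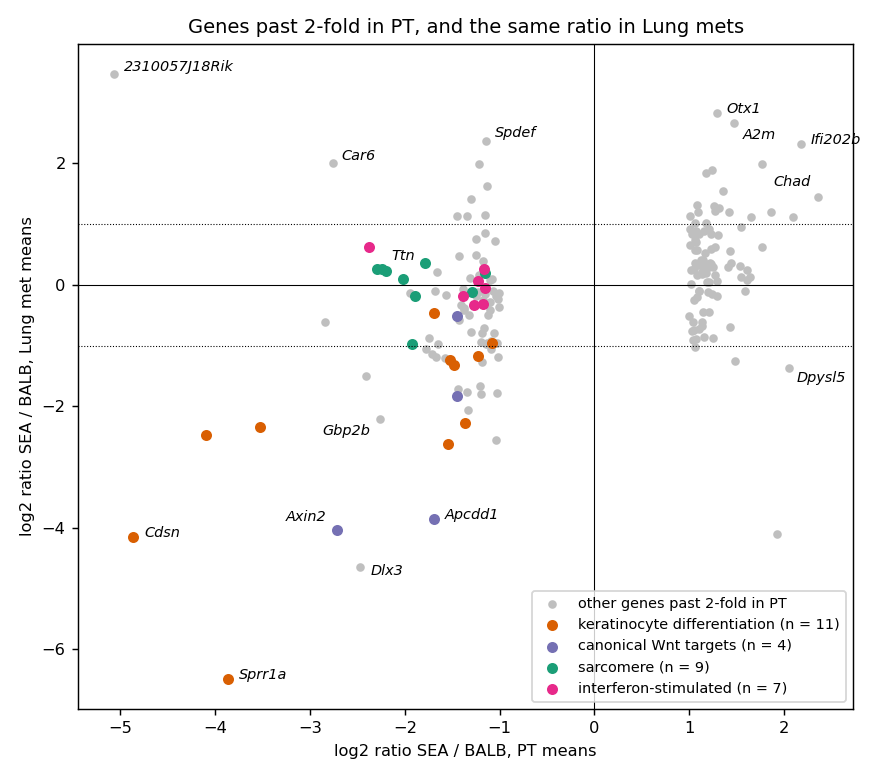
Log2 ratio of SEA over BALB in PT means (horizontal) and in Lung met means (vertical) for the 197 genes past 2-fold in PT, colored by gene list, with dotted lines at 2-fold in Lung mets. Keratinocyte and Wnt genes lie low in both tissues, whereas the sarcomere genes (log2 ratios of -2.30 to -1.15 in PT) lie between -0.98 and 0.35 in Lung mets.

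The largest ratios on the BALB side included genes of the cornifying epidermis. Cdsn, which encodes corneodesmosin, an adhesion protein of the outermost keratinocytes, had a normalized mean count of 2.04 in SEA PT and 87.8 in BALB PT, a log2 ratio of -4.87, or -3.02 with a pseudocount of 10 (chr17:35552128-35557180). In Lung mets it was 12.6 and 242. Sprr1a, a cornified envelope precursor, was at 15.3 and 236 in PT and at 5.73 and 602 in Lung mets. These 2 genes were thus near the lower limit of the tables in SEA and readily measured in BALB, in both tissues.

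Klk6 and Klk10, closely spaced genes for secreted kallikrein proteases on chromosome 7, had PT counts of 2.75 and 25.9 in SEA against 63.2 and 310 in BALB. In Lung mets Klk10 was at 433 in SEA and 2199 in BALB, so that both strains had more in Lung mets than in PT. Asprv1, a protease that processes filaggrin, was at 66.8 and 197 in PT (log2 ratio -1.55), and Cers3, the ceramide synthase of the skin barrier, was at 13.7 and 41.4 (-1.53). Padi1 and Padi4, which convert arginine to citrulline in proteins, were at -1.36 and -1.08. Grhl3 and Ovol1, transcription factors of epidermal differentiation, were at -1.23 and -0.91, and Dlx3, a homeobox factor of hair follicle and epidermis, was at -2.48.

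Of 14 genes in the list for squamous epithelium, 4 had a row in either table and 1, Sprr1a, was described. Of 31 keratinocyte genes listed after the values above had been seen, 17 were described. Cdsn and Klk6 were among them only through their BALB means, which fixed their direction in PT, and nothing is read from the count below. The median log2 ratio was -1.36 in PT and -1.32 in Lung mets, beside -0.01 and -0.01 over all genes. At least 2-fold higher in BALB were 11 in PT (0.681% of all genes) and 11 in Lung mets (1.11% of all genes). Krt5, the basal keratin, was at a log2 ratio of -0.89 in PT, and Krt15 was at -0.59. Krt6a had a deposited PT mean of 54.8 in the BALB table and no row in the SEA table. Ppl (631), Calml3 (223) and Klf4 (54.3) had one in the SEA table and no estimate in the BALB table. A missing row or estimate is not read as low expression, here or below. The 6 myoepithelial genes described of 10 listed had a PT median of -0.10 and ran from -0.89 for Krt5, also named above, to 0.43 for Oxtr. Krt14 and Krt17, keratins of this list that the keratinocyte list left out, were at -0.27 and 0.34 in PT. In Lung mets they were at -0.58 and -0.98. Of the myoepithelial genes not described, Acta2, Myh11 and Cnn1 had a mean in the BALB table only and Trp63 in the SEA table only.

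Several Wnt target genes were also past 2-fold on the BALB side. In canonical Wnt signaling, β-catenin joins the TCF/LEF factors and turns on genes that include feedback inhibitors of the pathway. Axin2, the feedback scaffold of the β-catenin destruction complex, was at 40.5 in SEA PT and 271 in BALB PT (log2 ratio -2.71), and at 32.4 and 547 in Lung mets (-4.03). Lef1, a partner of β-catenin, was at 19.4 and 54.7 in PT and at 8.70 and 33.7 in Lung mets. Apcdd1, a membrane inhibitor of Wnt, was at 25.3 and 84.2 in PT and at 7.71 and 125 in Lung mets. Nkd1, which binds Dishevelled, was at 15.5 and 44.1 in PT, a log2 ratio of -1.45, and at -0.52 in Lung mets.

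Other targets of the pathway differed little in PT. Znrf3 and Rnf43, ubiquitin ligases that remove Wnt receptors, had log2 ratios of -0.37 and -0.02, and Tcf7 and Nkd2 were at -0.35 and -0.13. In Lung mets Nkd2 was at -1.64 and Tcf7 at -1.11. Over the 8 described of 13 Wnt genes listed after the values had been seen, the median was -0.91 in PT and -1.38 in Lung mets, and 4 and 5 of the 8 were at least 2-fold higher in BALB, beside 0.681% and 1.11% of all genes. Wif1, a secreted Wnt inhibitor, had a deposited mean of 61.0 in BALB PT and no row in the SEA table. Axin2 (chr11:108920349-108950783) lies on the distal part of chromosome 11 described below.

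Interferon-stimulated genes had the lowest PT median of the pathway lists other than those added after the values had been seen. Those lists too were chosen with earlier results of these data known, so this rank is a description only. Type I interferon turns on antiviral genes whose promoters carry a response element known as the ISRE. Of the 23 genes described out of 30 listed, 21 had negative ratios in PT, with a median log2 ratio of -0.76 beside -0.01 over all genes, and 7 were at least 2-fold higher in BALB against a background of 0.681%. None of the 23 was 2-fold higher in SEA, beside 0.634% of all genes.

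To show the element in these genes, the RefSeq promoters (GRCm38.p6, the first listed start of each gene) were searched over the 250 bases before the start for GAAANNGAAA, a core form of the ISRE, on both strands. A match was in 11 of the 18 promoters found for the list (61.1%), and in 821 of all 27025 promoters, 1 per gene (3.04%). Of the 7 genes past 2-fold, 5 had a promoter entry and 5 of 5 held a match. A stretch of each is printed 5′ to 3′ on the gene's strand with the matched letters in capitals. Oas1a and Oas1g carry the same pair of overlapping matches. These are reference sequences and not those of SEA or BALB, and a match is a description of letters and not of binding.
Oas1a: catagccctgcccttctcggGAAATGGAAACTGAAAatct
Oas1g: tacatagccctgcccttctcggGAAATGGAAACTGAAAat
Oas3: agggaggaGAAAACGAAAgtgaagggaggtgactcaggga
Gbp3: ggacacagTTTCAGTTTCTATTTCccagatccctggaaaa
Rsad2: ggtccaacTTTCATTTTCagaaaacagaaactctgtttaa

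The stretches lie at chr5:120907526-120907565 for Oas1a, chr5:120887614-120887653 for Oas1g, chr5:120777703-120777742 for Oas3, chr3:142559991-142560030 for Gbp3 and chr12:26456541-26456580 for Rsad2. The first match begins 20 bases before the start in Oas1a, 18 in Oas1g, 45 in Gbp3, 75 in Oas3 and 120 in Rsad2.

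The 3 oligoadenylate synthetases in this set make the messenger that activates RNase L. Oas1a had a normalized mean count of 186 in SEA PT and 422 in BALB PT, Oas3 115 and 260, and Oas1g 20.6 and 47.0, log2 ratios of -1.18, -1.17 and -1.15. Reads may be split between the near-identical Oas1 copies, so the separate values of Oas1a and Oas1g are uncertain. Rsad2, the antiviral enzyme viperin, was at 246 and 578 (log2 ratio -1.23), and Gbp3, a guanylate-binding GTPase, at 112 and 295 (-1.39). Usp18, the protease that removes ISG15 and damps the receptor, was at -1.27, and Ifi27l2a had the largest ratio of the list, with 27.5 in SEA and 147 in BALB (-2.38).

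Abundant members of the list lay below 2-fold in the same direction. Irf7, the factor that amplifies the response, was at 813 and 1554 (-0.93), Oasl2 at -0.86, Ifi44 at -0.84, Isg15 at -0.76 and Ifit1 at -0.75. Gbp2 and the chemokine Cxcl10 were nearly level, at -0.03 and 0.17. Xaf1 went the other way, at 690 in SEA and 410 in BALB, a log2 ratio of 0.75, and it was at 0.77 in Lung mets.

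In Lung mets the list had a median log2 ratio of -0.13. None of its 23 genes was past 2-fold there, beside 0.908% (higher in SEA) and 1.11% (higher in BALB) of all genes. For 23 genes this count is near those shares, and nothing is read from it. Oas1a was then at 218 in SEA and 272 in BALB, and Rsad2 was at 194 and 186. Still 17 of the 23 had negative ratios there, and Rtp4 (-0.56 in PT and -0.62 in Lung mets) and Isg15 (-0.76 and -0.48) kept much of theirs. Whether the PT and Lung met ratios differ could not be tested with 1 mean per group.

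A further list of 13 interferon-inducible genes, mostly of the guanylate-binding and p200 families, was chosen after the values had been seen. Its 6 genes described had median log2 ratios of -0.24 in PT and 0.13 in Lung mets. Of these, 3 were past 2-fold in both tissues, beside 0.134% (higher in SEA) and 0.194% (higher in BALB) of all genes. Ifi202b, a p200 family protein that binds cytoplasmic DNA, had a normalized mean count of 515 in SEA PT and 113 in BALB PT (log2 ratio 2.18, chr1:173962568-173982744), and 402 and 79.5 in Lung mets (2.32). Gbp2b, a guanylate-binding protein also known as GBP1, was at 31.1 and 153 in PT (-2.27) and at 22.7 and 108 in Lung mets (-2.20), and it lies near Gbp3 on chromosome 3. Samd9l, an interferon-induced antiviral factor, was at 231 and 740 in PT (-1.67) and at 261 and 597 in Lung mets (-1.19). Ifi202b thus ran opposite to Gbp2b and Samd9l, and each of the 3 was past 2-fold in both tissues. Aim2, Gbp5 and Gbp7 were at -0.10, 0.22 and -0.38 in PT and at 0.26, 0.28 and -0.01 in Lung mets. p200 and guanylate-binding genes are families of similar copies, so reads may be split among them.

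**Figure D3:**
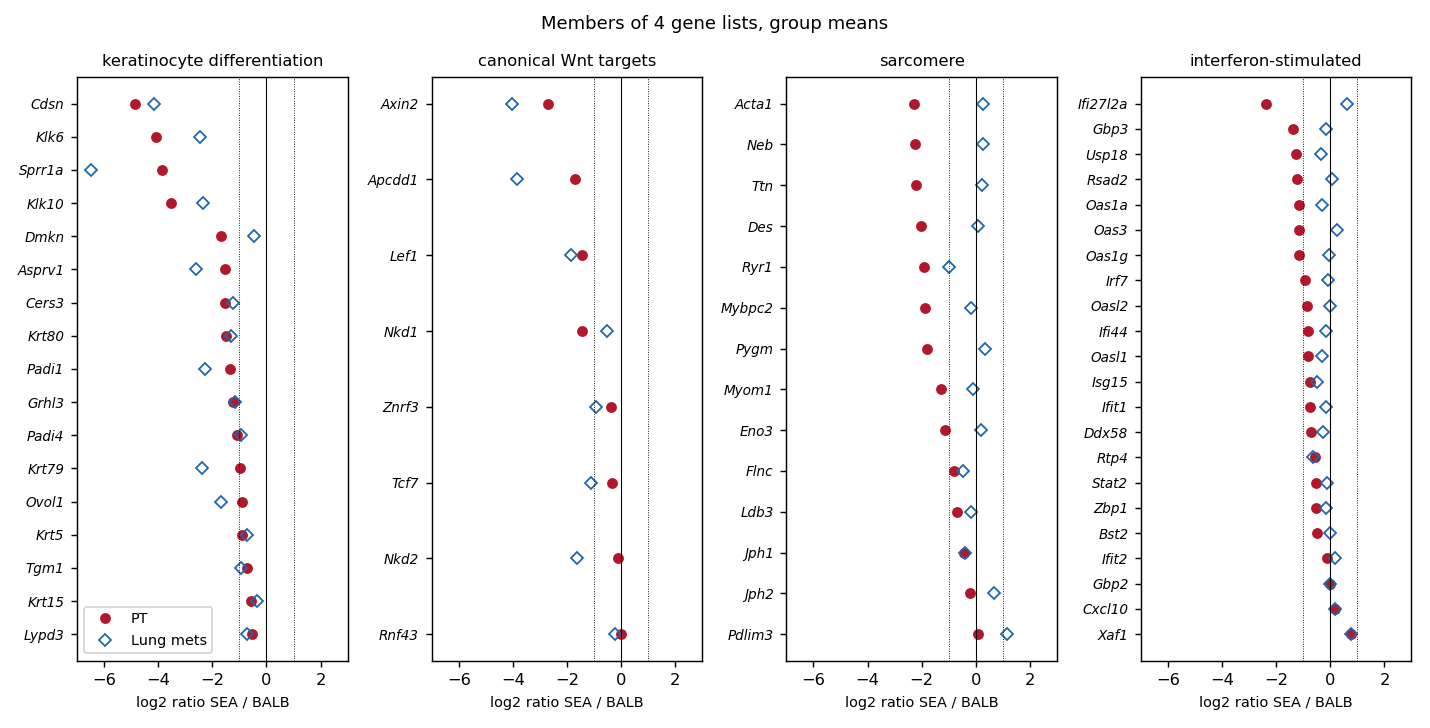
Log2 ratio of SEA over BALB for described members of 4 gene lists, in PT (red circles) and Lung mets (open blue diamonds), with dotted lines at 2-fold. All keratinocyte and Wnt symbols, of lists chosen after the values had been seen, lie left of 0. The list medians, -1.54 in PT and 0.14 in Lung mets for sarcomere and -0.76 and -0.13 for interferon genes, differ more between tissues. Xaf1, Cxcl10 and Pdlim3 lie right of 0 in both.

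Genes of the muscle sarcomere formed the other BALB-higher set, in PT means only. Ttn, the giant spring of the sarcomere, was at 879 in SEA and 4027 in BALB (log2 ratio -2.19), and in Lung mets at 88.4 and 75.6. Neb, which encodes nebulin of the thin filament, was at 114 and 541 in PT and at 30.8 and 25.6 in Lung mets. Acta1, skeletal muscle actin, was at 74.5 and 371 in PT, and Ryr1, the calcium release channel, at 39.5 and 153. PT of both strains thus had more of these transcripts than Lung mets, and BALB PT had the most.

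Des, the intermediate filament of muscle, was at -2.02, Mybpc2 at -1.89, Pygm, muscle glycogen phosphorylase, at -1.79, Myom1 at -1.29 and the muscle enolase Eno3 at -1.15. In all, 9 of 14 described members of a sarcomere list chosen after the values had been seen were at least 2-fold higher in BALB PT, beside 0.681% of all genes, with a median of -1.54 in PT and 0.14 in Lung mets. Of the skeletal muscle markers, 3 of 16 were described, 12 had no row in either table, and the summed count of the 3 was 141 in SEA PT and 495 in BALB PT. Nrap, also a muscle gene, had a deposited PT mean of 67.8 in BALB and no row in the SEA table. The part of muscle tissue in the PT samples was not tested, and the means do not show whether 1 sample or all 6 carried these transcripts.

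On the SEA side the ratios were smaller and the genes more diverse. Chad, which encodes chondroadherin, a matrix protein that binds integrins, had the largest named ratio, with 280 in SEA PT and 53.9 in BALB PT (log2 ratio 2.35, chr11:94565047-94569127), and 20.4 and 6.85 in Lung mets (1.45). Sec14l4, a lipid-binding protein, was at 84.9 and 24.2 in PT and at 98.7 and 24.0 in Lung mets. Scube1, a secreted and membrane-bound protein with EGF repeats, was the most abundant of the genes higher in both tissues, at 1541 and 575 in PT and at 662 and 288 in Lung mets. Otx1, a homeobox factor, was at 251 and 102 in PT and at 512 and 71.2 in Lung mets.

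Further genes higher in SEA in both tissues were Dram1, a lysosomal protein of p53-dependent autophagy (1.26 in PT), the collagen Col25a1 (1.24), the lipocalin Apod (1.31), the immediate early gene Arc (1.28), the glutamate transporter Slc1a3 (1.09), Camk2n1, an inhibitor of CaM kinase II (1.08), and Wfdc2 (1.65). Slc39a4, the zinc importer ZIP4, was at 137 and 37.1 in PT (1.86), and Atp7b, a copper pump, was at 1.77 in PT and 0.62 in Lung mets. Metallothioneins, which bind zinc and copper, ran the other way, with Mt2 at 152 in SEA and 350 in BALB (-1.20) and Mt1 at 471 and 762 (-0.69), and both were past 2-fold in Lung mets (-1.79 and -1.25). The zinc exporter Slc30a1 was at -0.22 in PT. Slc39a4, Mt1, Mt2 and Slc30a1 belonged to a list chosen after the values had been seen.

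Genes for some plasma proteins of the acute phase were past 2-fold on the SEA side. The protease inhibitor A2m was at 326 in SEA and 117 in BALB (log2 ratio 1.47) and at 169 and 25.9 in Lung mets (2.66). Hp, which encodes haptoglobin, was at 404 and 178 in PT and at 727 and 203 in Lung mets. C3, the central complement component, was at 1813 and 738 in PT (1.30) but at 981 and 945 in Lung mets (0.05). Saa1 and Saa2 were both at 0.79 in PT and at -0.40 and -0.45 in Lung mets. Lcn2, the most abundant of these at 45895 and 43435, was level in PT (0.08), and Saa3 was at -0.17. Of 9 such genes listed after the values had been seen, 8 were described, with medians of 0.79 in PT and -0.42 in Lung mets, and 3 were at least 2-fold higher in SEA PT (0.634% of all genes).

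Among hormone receptor genes, the less abundant ones had higher means in SEA PT. Esr1, the estrogen receptor, was at 160 in SEA and 71.8 in BALB (log2 ratio 1.14), and Foxa1, its pioneer factor, at 42.2 and 23.6 (0.81). Pgr, the progesterone receptor and an estrogen target, was at 30.9 and 15.0, just under 2-fold. In Lung mets Pgr was at 1.37, Foxa1 at 1.18 and Esr1 at 0.41. Prlr, the prolactin receptor, was level at 1570 and 1770 (-0.17). Esr1 was the 1 gene past 2-fold in PT among the 5 described of this list of 8, beside 0.634% of all genes. This list was also chosen after the values had been seen.

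Of the lists for other cell types of the tumor, those of stroma had positive medians in PT. In the fibroblast and collagen matrix list 15 of 16 genes had positive ratios, with a median log2 ratio of 0.38 in PT and 0.05 in Lung mets, and 1 was past 2-fold against a background of 0.634%. Col1a1 was at 7518 in SEA and 5173 in BALB (0.54), Col3a1 at 4150 and 2559 (0.70), Lum at 202 and 112 (0.85), and Fbln2, the gene past 2-fold, at 1787 and 742 (1.27). In the macrophage list 12 of 12 described genes of 14 were positive, with medians of 0.33 in PT and 0.39 in Lung mets, and Lyz2 had the largest ratio, 0.62, at 1048 and 683. The 13 endothelial genes had medians of 0.18 in PT and 0.28 in Lung mets, with Vwf at 0.71. No macrophage or endothelial gene was past 2-fold in PT, beside 0.634% (higher in SEA) and 0.681% (higher in BALB) of all genes.

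Immune markers were otherwise sparse. The 5 MHC class II genes described had a median log2 ratio of 0.35 in PT, with Cd74 at 0.41, and the 12 MHC class I genes of -0.09 in PT and 0.30 in Lung mets. Igkc, the immunoglobulin kappa constant region, was at 11.9 in SEA PT and 67.8 in BALB PT (-2.41), and at 125 and 356 in Lung mets, but 2 of 17 B and plasma cell genes listed were described. The 8 neutrophil genes had a median of -0.35 and ranged from -0.72 for S100a9 to 0.42 for S100a8, and their median in Lung mets was 0.70.

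**Figure D4:**
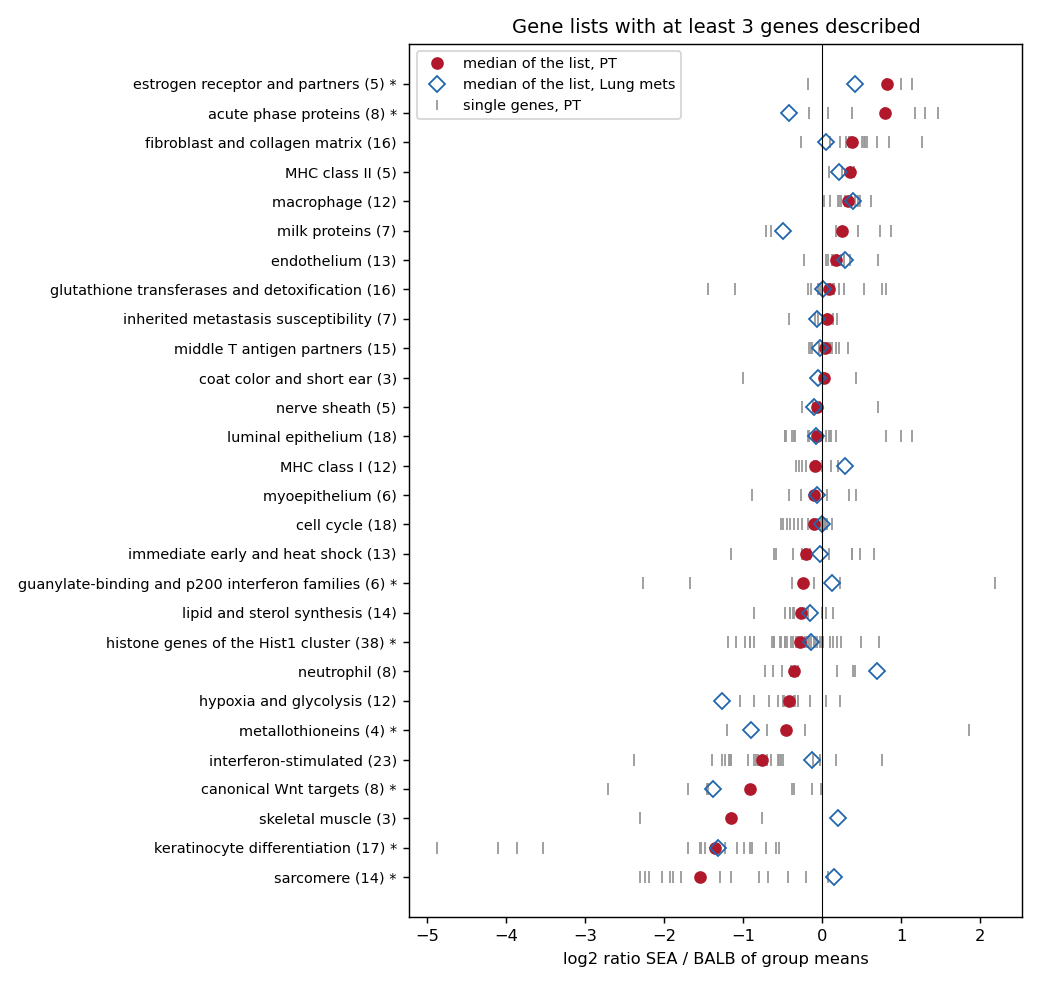
Median log2 ratio of SEA over BALB for each gene list with at least 3 genes described, in PT (red circles) and Lung mets (open blue diamonds), with the single genes of the list in PT as grey ticks and the number described in brackets. An asterisk marks a list chosen after the values had been seen. The medians run from -1.54 for sarcomere genes to 0.82 for the estrogen receptor list in PT.

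Of 12 hypoxia and glycolysis genes, 10 were lower in SEA PT, with a median log2 ratio of -0.42. Adm, which encodes the vasodilator adrenomedullin, was at 107 and 221 (-1.04), and Hk2, the inducible hexokinase, at 244 and 446 (-0.87). In Lung mets the median was -1.27, and 7 of the 12 were at least 2-fold higher in BALB (background 1.11%), including Bnip3 at -1.79, Ndrg1 at -1.72 and Pfkfb3 at -1.69. The 14 lipid and sterol genes had a PT median of -0.27, with Scd1, the stearoyl-CoA desaturase, at 6291 and 11418 (-0.86). The 18 cell cycle genes had a median of -0.10 in PT, with Mki67 at 3469 and 4304 (-0.31). None was past 2-fold in PT, beside 0.634% (higher in SEA) and 0.681% (higher in BALB) of all genes.

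The signaling partners of the oncogene were nearly level. All 15 listed partners of middle T antigen were described, with a median log2 ratio of 0.04 and a range of -0.17 for Src to 0.33 for Fyn. Pik3r1, the regulatory subunit of phosphoinositide 3-kinase, was at 0.01, Shc1 at -0.01 and the phosphatase subunit Ppp2r1a at 0.03. The 7 genes of inherited metastasis susceptibility had a median of 0.06, with Nup210, a nuclear pore protein, at 510 in SEA and 681 in BALB (-0.42), Rrp1b at -0.09 and Sipa1 at 0.14. Cdkn2a, the tumor suppressor locus, was at 43.4 and 87.6, just under 2-fold.

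Ratios were also set in gene order, for the 12762 described genes whose symbol occurred once in GENCODE M21 (GRCm38). Their median log2 ratio was -0.01 in PT. The 1092 genes of chromosome 11 had a median of 0.14 in PT, the highest of all chromosomes, and 77.6% of them lay above the median of all placed genes. Chromosome 17 had a median of 0.08 in PT and 0.12 in Lung mets, and chromosome 16 of 0.07 in PT and -0.01 in Lung mets. The other chromosomes had PT medians from -0.06 to 0.02. Split into runs of 50 consecutive genes, 21 of 21 runs on chromosome 11, 12 of 12 on chromosome 17 and 8 of 8 on chromosome 16 lay above the PT median of all placed genes. Subtracting the median of genes of like GC content left the chromosome 11 value at 0.14.

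Along chromosome 11 the Lung met ratio parted from the PT ratio. Over the first 15 runs, from Drg1 to Lasp1 (chr11:3187360-97838764), the median was 0.15 in PT and 0.07 in Lung mets. Over the next 4 runs, from Plxdc1 to Slc9a3r1 (chr11:97923238-115181181), it was 0.15 in PT and -0.18 in Lung mets. Over the last 2 runs, from Nat9 to Faap100 (chr11:115182832-120378764), it was 0.07 in PT and -0.62 in Lung mets. Of these 100 genes, 93 were lower in SEA Lung mets than in BALB Lung mets, 57 of them by at least 1.5-fold. The same counts were 253 and 21 of the 750 genes in the first 15 runs, and 150 and 16 of the 200 in the next 4. The 226 runs on the other chromosomes had Lung met medians between -0.14 and 0.16.

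The distal difference lay in the BALB means. Relative to the median gene, the Lung met over PT log2 ratio of the last 2 runs was 0.55 in BALB and -0.10 in SEA, and on the 4 runs before them it was 0.19 and -0.13. The boundaries of these stretches were chosen after the values had been seen. Axin2, in the middle stretch, had log2 ratios of -2.71 in PT and -4.03 in Lung mets, where the medians of the stretch were 0.15 and -0.18. Whether the position of Axin2 bears on its ratios was not tested.

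**Figure D5:**
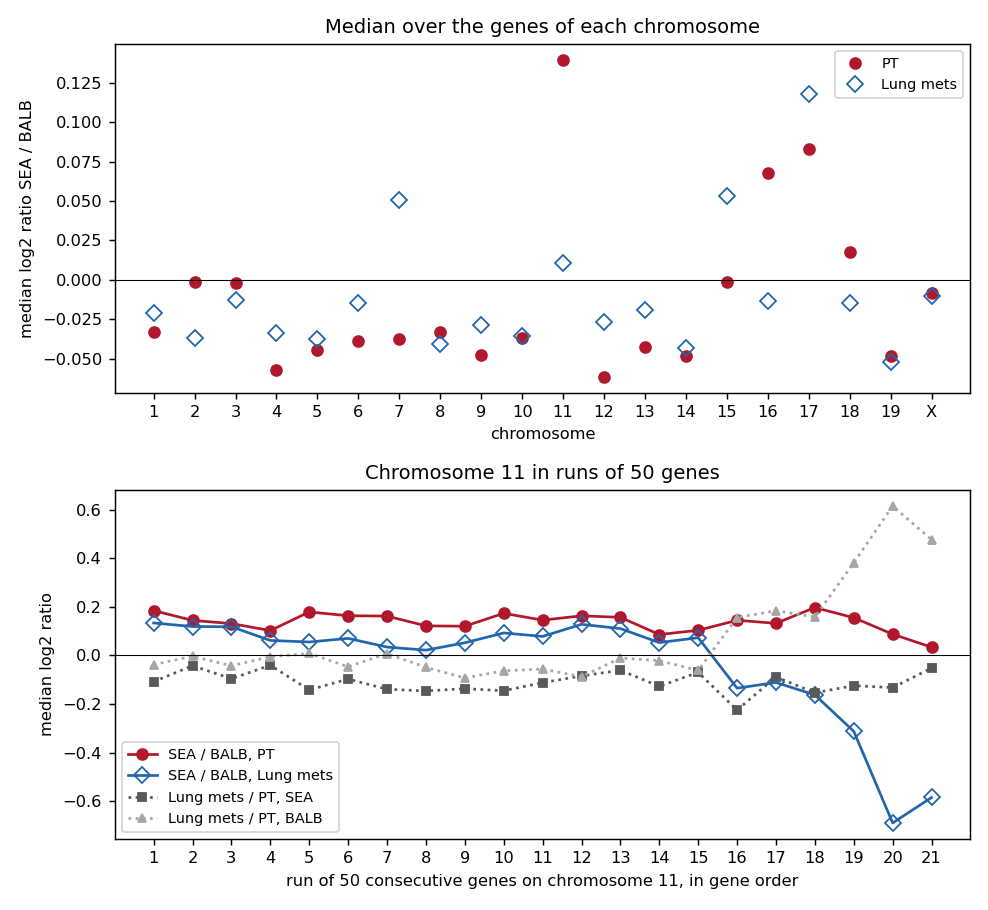
Top, median log2 ratio of SEA over BALB for the genes of each chromosome in PT (red circles) and Lung mets (open blue diamonds). Bottom, medians of 21 runs of 50 genes along chromosome 11 in gene order, with the Lung met over PT ratio of each strain in grey, where the BALB Lung met means depart upward at the distal end, to 0.61 in run 20.

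Genes past 2-fold in both tissues were few in any run of 50 genes. Of the placed genes 1.36% were past 2-fold in PT and 0.329% in both tissues the same way. By chromosome the latter share was highest on chromosome 15, with 6 of 492 genes (1.22%). There Arc, Slc39a4, Scube1 and Slc1a3 were higher in SEA, and Krt80 and Nckap5los higher in BALB. The most in a run of 50 genes was 3 past 2-fold in both tissues, reached on chromosome 3 from Egf to Gbp2b (Col25a1, Lef1 and Gbp2b) and on chromosome 4 from Wnt4 to Tmem82 (Camk2n1, Padi1 and Tmem82). In each of these runs both directions occurred. Chad and Dlx3 shared a run on chromosome 11, with Chad higher in SEA and Dlx3 higher in BALB. Of 42 genes of the Hist1 histone cluster on chromosome 13, listed after the values had been seen, 38 were described. Their median was -0.28 in PT and -0.14 in Lung mets. Hist1h2ak and Hist1h2af were at least 2-fold higher in BALB PT (-1.19 and -1.10), beside 0.681% of all genes. Near-identical histone copies can share reads, and their separate values are uncertain.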

How the data were processed

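The members and gene lists were chosen with earlier results of these data known. Per the labels, STAR 2.7.8a, DESeq2 and the build mm39 were named by the submitters' processing notes, whereas the study's methods name Partek Flow with earlier mouse builds, so the pipeline is uncertain, and the sources also differ on whether total RNA or mRNA was sequenced. The deposited signal values were the authors' group means (least squares means of normalized counts), 1 per gene, tissue and strain, with 17351 genes in the SEA and 17270 in the BALB table. The gene identifiers of both strains carried the prefix MGP_BALBcJ, which names the BALB/cJ strain. How a BALB/cJ annotation bears on the SEA values was not tested. Rows without an estimate (53 and 93) were dropped. Columns with the authors' fold changes and p-values were not used. Medians over joined genes were 134.7 (SEA PT) and 141.2 (BALB PT) before scaling. No sample carried an error, and no test was made. Named genes were, for each direction, the 10 largest PT ratios, 15 ranked by the smaller of both tissues' ratios, list members past 2-fold or defining a list, and genes past 2-fold in both tissues in the top 3 runs of 50 genes. Beside 28 lists, 8 were added after values were seen. The ratio step was tested on simulated data. Python 3.11.15, pandas 2.3.3 and numpy 2.4.6 were used, with gene positions from GENCODE M21. Some single genes are not reported here.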

Additional observations from a re-analysis of the deposited data

How the results depend on the processing

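No paired analysis was possible because the tables hold 1 mean per group, and no replicate could be left out for the same reason. Counts of genes are given as higher in SEA and higher in BALB. Against 95 and 102 genes in PT, a pseudocount of 10 gave 50 and 74, a minimum of 50 in both strains 37 and 42, no filter on low values 144 and 145, a 1.5-fold limit 464 and 420, and a 4-fold limit 4 and 16. Against 20 and 29 genes in both tissues, these gave 13 and 22, 12 and 9, 29 and 42, 116 and 122, and 1 and 7. Without scaling, PT counts were 78 and 127, so the SEA share of the genes past 2-fold went from 48.2% to 38.0%, and it was 40.3% with a pseudocount of 10. The most genes in a run went from 3 to 1 with at least 50 in both and to 5 at 1.5-fold. The neutrophil list's PT median changed from -0.35 to 0.19 with at least 50 in both, where 3 of its genes remained. The chromosome 11 median was 0.07 without scaling, beside -0.08 for all genes (alternatives for this value were chosen after seeing the data). A pseudocount of 10 moved the PT ratios of 121 of 177 named genes by at least 0.1, including Klk6 from -4.10 to -2.52. No error is known for low means.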

Other observations

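Genes that were past 2-fold in opposite directions in PT and Lung mets numbered 4 on the SEA and 9 on the BALB side of PT. 2310057J18Rik had the largest PT ratio of any named gene, with a normalized mean count of 378 in SEA PT and 12764 in BALB PT, and 5155 and 465 in Lung mets. Car6, a secreted carbonic anhydrase of saliva and milk, was at 495 and 3364 in PT and at 584 and 145 in Lung mets. Spdef, a factor of secretory epithelia, was at 97.9 and 217 in PT and at 206 and 38.9 in Lung mets, and Tspan1 was at 79.7 and 176 in PT and at 196 and 62.9. Cyp2f2, a cytochrome P450 of lung club cells, was at 31.3 and 87.2 in PT and at 388 and 176 in Lung mets. On the SEA side, Dpysl5 was at 136 and 31.9 in PT and at 7.66 and 21.3 in Lung mets, and Bpifb5 was at 328 and 117 in PT and at 24.0 and 58.6.

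Milk protein genes did not move together in PT. Csn3, which encodes kappa casein, was at 45364 in SEA and 73901 in BALB (log2 ratio -0.70), whereas Mfge8, a protein of the milk fat globule, was at 10077 and 5524 (0.87) and Btn1a1 at 757 and 455 (0.73). Wap was at 0.25 in PT and at -4.16 in Lung mets.

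Some genes had a mean in only 1 of the tables and were not compared. At a deposited PT mean of at least 50 these were 38 genes of the SEA table, of which 27 had a row without an estimate in the BALB table, and 41 genes of the BALB table, of which 32 had a row without an estimate in the SEA table. Among them were Tfap2b (1539), Col4a6 (887) and Trp63 (244) in SEA, and Neat1 (21797), Ccdc6 (3296), Oas2 (1169) and Acta2 (484) in BALB.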
